A study of Mus musculus with 2 samples.

Results

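The vascular smooth muscle cells (SMCs) of femur and tibia were picked out of single-cell RNA sequencing (scRNA-seq) libraries by their own transcripts. A cell had to hold at least 1 unique molecular identifier (UMI, the tag that marks 1 captured RNA molecule) of Myh11, the heavy chain of smooth muscle myosin, and UMIs of at least 2 of the 6 genes Pln, Lmod1, Rergl, Cnn1, Nrip2 and Tagln. It could hold no UMI of Cdh5, the endothelial cadherin, none of Ptprc, the CD45 antigen of blood cells, and fewer than 5 of Acan, the cartilage proteoglycan. Only cells in which 500 to 6000 genes were found, and whose UMIs were less than 25% mitochondrial, entered. The rule found 912 SMCs among 26466 kept cells of the Control library and 1665 among 29317 of the Dach1OE library, in all 2577 of 55783 cells.

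Smooth muscle cells wrap arteries and arterioles and set their width. They contract when calcium activates myosin light chain kinase, so that myosin pulls on filaments of smooth muscle actin anchored at dense bodies, and they relax through cyclic GMP and through potassium channels that hold the membrane polarised. Pericytes are their neighbours on capillaries, embedded in the basement membrane, with far less of the contractile apparatus. Many smooth muscle genes are switched on by serum response factor with its partner myocardin, which bind a short sequence known as the CArG box.

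The cells came from C57BL/6 mice of both sexes at postnatal day 30, after the epiphysis had been removed, the bones treated with collagenase and crushed, and blood cells depleted with beads. Control mice had the genotype Dach1OE +/f and Dach1OE mice the genotype Apj CreERT2 - Dach1OE +/f, and both groups received Tamoxifen. All the mice therefore carried the conditional allele that can overexpress Dach1, a transcription factor, and the groups differed in the Cre, which the Apj (Aplnr) promoter drives in endothelial cells. Each group is 1 library from a pool of 2 mice, so there was no replicate and no test, and the values describe these libraries. The labels give both sexes for each pool, so female and male values come from 1 mouse of each group, and sex and individual cannot be told apart. Intervals are 95% exact intervals that cover counting error only.

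The deposited data held 28720 Control cells with 143986818 UMIs and 32028 Dach1OE cells with 166999989 UMIs. SMCs were shallower than the average cell, at a median depth of 2424 UMIs in Control and 1997 in Dach1OE, against 3793.5 and 4055 over all kept cells, and their median number of genes was 1222.5 and 1076. Their median mitochondrial share was 16.1% and 15.3%, against 7.82% and 7.90% over kept cells. The libraries had 1049 cell indexes in common, and no index was an SMC in both.

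Levels are given as CPM, the UMIs of a gene scaled to the summed UMIs of the cells of a kind. The 5 defining genes Myh11, Acta2, Tagln, Pln and Lmod1 together made up 18326 CPM in Control SMCs and 17413 in Dach1OE SMCs, against 143 and 188 CPM in all other kept cells. Of these 5, the rule itself used all but Acta2, so the sum follows from the choice of cells. Acta2, smooth muscle actin, was seen in 99.0% of Control and 98.7% of Dach1OE SMCs. After every cell was thinned to 1000 UMIs, which left out 1 and 29 shallower SMCs, the shares were 96.2% and 96.1%. Cells with a Ptprc UMI, which should lack Acta2, showed it in 4.31% and 6.21% at median depths of 4889 and 4652.5 UMIs. The 6 haematopoietic markers summed to 40.8 and 43.5 CPM in the SMCs. Of these, S100a8 and S100a9 were at 0 in both libraries, and Ptprc was at 0 because the rule left out cells with it. The 7 skeletal muscle markers summed to 13.2 and 13.4 CPM, with Myh4 at 0.

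The edge of the rule was gradual. With exactly 2 of the 6 marker genes there were 274 Control and 450 Dach1OE SMCs, and their Acta2 level was 5060 and 5259 CPM. Just outside stood 175 Control and 310 Dach1OE cells with Myh11 and 1 marker gene, in which Acta2 was at 2465 and 2061 CPM. SMCs with 3 or more marker genes had 11393 and 10638 CPM. These values follow from the choice of cells and were not tested.

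Most SMCs also carried UMIs of genes of other lineages. Col1a1 was seen in 84.9% of Control and 89.9% of Dach1OE SMCs, and Col2a1 in 73.2% and 79.5%. Cells with a Ptprc UMI, which should lack both, showed Col1a1 in 87.2% and 90.5% and Col2a1 in 81.6% and 88.4%. After thinning, the Col1a1 shares were 65.3% and 75.5% in SMCs and 43.7% and 50.6% in Ptprc cells. Those of Col2a1 were 45.3% and 59.9%, and 41.7% and 50.9%. The source of these UMIs was not tested. At least 3 UMIs over the lineage genes of another cell type were found in 196 Control (21.5%) and 356 Dach1OE SMCs (21.4%), called mixed cells here. They held 87.3% and 90.3% of the SMCs' Col1a1 UMIs, 90.8% and 80.5% of Cxcl12, 94.2% and 97.3% of Hba-a1, but only 22.5% and 21.3% of Acta2. Over the whole lists, 6 of 6 osteoblast markers had UMIs and summed to 9373 and 14514 CPM in Control and Dach1OE SMCs, and to 1738 and 2146 without the mixed cells. For 6 of 6 erythroid markers the sums were 163 and 457 CPM, and 13.5 and 21.2 without them. For 6 of 6 marrow stromal markers they were 3417 and 2306 CPM, and 1677 and 1692 without them. Lpl, 1 of these 6, held 3195 and 3809 of their 9038 and 9815 UMIs, and 42.3% and 33.8% of its UMIs lay in mixed cells. The 6 chondrocyte markers stood at 1006 and 1578 CPM, and still 845 and 1315 without the mixed cells, which held 41.1% and 43.5% of the Col2a1 UMIs. The 8 endothelial markers, with Cdh5 at 0 by the rule, were at 177 and 209 CPM, and 120 and 139 without them. Fibroblast markers stood at 351 and 360 CPM, and 43.7 and 42.8 without them, and platelet markers at 461 and 435 CPM, and 54.4 and 77.0 without them. Since mixed cells were picked by such genes, leaving them out lowers these sums by construction. Whether mixed cells were doublets or cells with free RNA was not tested.

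The promoters of the contractile genes were searched for the element through which smooth muscle genes are known to be driven, and 3 entries that hold it are shown. RefSeq entries on GRCm38.p6 matched 28 of the 33 contractile and rule genes, with 32 entries. A CArG box was sought in the 250 bases before the start on both strands. An exact box stood in 5 of 32 entries (15.6%), against 482 of 32851 entries of all genes (1.47%). With at most 1 other base, a box stood in 13 of 32 (40.6%) against 6117 of 32851 (18.6%). The entries below are Rergl, a small GTPase-like protein of the cell rule (chr6:139501910-139502159, minus strand), with an exact box 49 bases before the start, Myl9, the regulatory light chain of smooth muscle myosin (chr2:156775214-156775463, plus strand), with an exact box 161 and a box with 1 other base 99 bases before it, and Acta2 (chr19:34255374-34255623, minus strand), with boxes that differ in 1 base at 84 and 34 bases before it. Capitals mark the boxes, and a match is a description of these letters only.
Rergl: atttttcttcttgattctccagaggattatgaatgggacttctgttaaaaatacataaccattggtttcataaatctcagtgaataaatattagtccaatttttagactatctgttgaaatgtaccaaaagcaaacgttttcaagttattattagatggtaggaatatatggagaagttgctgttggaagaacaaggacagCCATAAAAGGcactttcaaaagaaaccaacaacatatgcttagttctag
Myl9: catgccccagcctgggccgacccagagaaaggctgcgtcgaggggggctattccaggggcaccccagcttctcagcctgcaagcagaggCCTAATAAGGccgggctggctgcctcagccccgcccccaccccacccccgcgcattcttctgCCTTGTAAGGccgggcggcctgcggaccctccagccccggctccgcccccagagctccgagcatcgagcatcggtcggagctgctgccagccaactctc
Acta2: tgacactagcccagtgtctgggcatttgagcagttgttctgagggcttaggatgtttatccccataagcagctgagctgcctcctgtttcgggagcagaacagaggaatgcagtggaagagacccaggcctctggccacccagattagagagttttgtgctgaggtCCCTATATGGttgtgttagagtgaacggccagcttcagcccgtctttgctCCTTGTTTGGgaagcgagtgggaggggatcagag

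SMCs made up a larger share of the Dach1OE library than of the Control library. The share was 3.45% in Control (3.23 to 3.67) and 5.68% in Dach1OE (5.42 to 5.95), a difference of 2.23 percentage points (1.89 to 2.58) or 1.65-fold. The direction was the same in cells with Xist UMIs and in cells with Y-linked UMIs. In the former, taken as female, SMCs were 2.03% in Control and 3.86% in Dach1OE, and in the latter, taken as male, 2.60% and 3.38%. Neither kind of UMI was found in 535 of the 912 Control and 1023 of the 1665 Dach1OE SMCs. Female and male values thus rest on 356 and 612 SMCs. Among kept cells with neither kind, SMCs were 5.72% and 9.14%. Pericytes, chosen by Rgs5 and other pericyte genes and with no overlap with the SMCs, were 293 of the 26466 Control and 719 of the 29317 Dach1OE cells, a 2.22-fold higher share. Among SMCs and pericytes together the SMCs were 75.7% in Control and 69.8% in Dach1OE, a difference of -5.84 percentage points (-8.84 to -2.76).

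The ratio of the shares was highest in shallow cells. Among kept cells with under 1500 UMIs, SMCs were 3.39% in Control and 13.4% in Dach1OE, a 3.97-fold higher share. Between 1500 and 1999 UMIs they were 7.26% and 15.6%. In cells with at least 2000 and under 3000 UMIs the shares were 7.42% and 9.05%, and with 5000 or more they were 0.811% and 0.999%. Over all cells with at least 2000 UMIs the shares were 2.98% and 3.52%, or 1.18-fold, with a difference of 0.541 points (0.213 to 0.869). When the rule was applied after all cells had been thinned to 1000 UMIs the shares were 2.52% and 4.32%, or 1.72-fold. Dissociation, depth and the number of SMCs in the tissue cannot be told apart from 1 library a group.

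**Figure D1:**
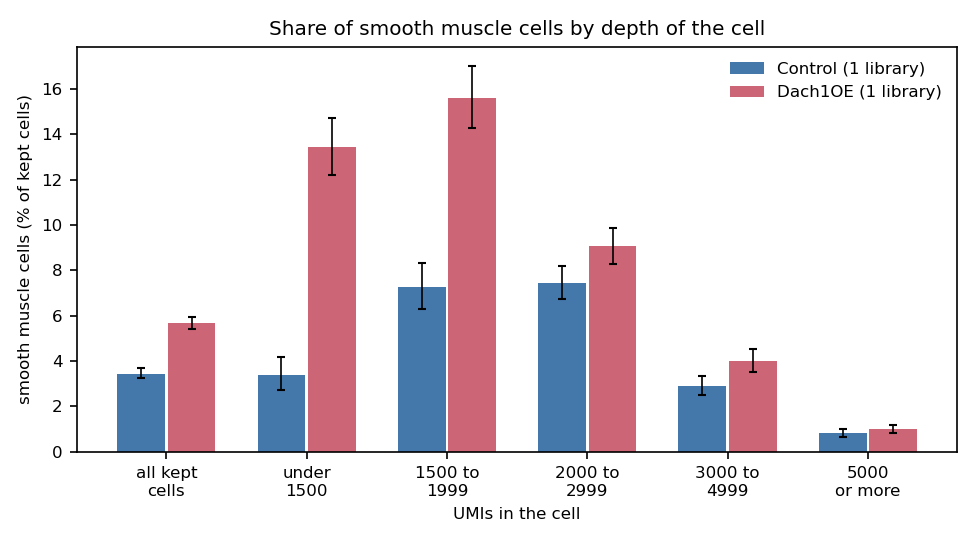
The y axis gives the percent of kept cells that were smooth muscle cells and the x axis the number of UMIs in the cell, with all kept cells at the left. Blue bars are the Control and red bars the Dach1OE library, 1 library each, and the lines are 95% exact binomial intervals. The bars stand farthest apart below 1500 UMIs (3.39% and 13.4%) and are close at 5000 UMIs or more (0.811% and 0.999%).

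The transcripts that set SMCs apart from pericytes and from all other cells are described first, because they are the ground for the comparison of the groups. The rule chose cells by transcripts of the same libraries, so these contrasts are a description with no test. A gene entered with at least 100 UMIs over both libraries.

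Against pericytes, SMCs had the higher level of the contractile machinery. Of 9227 genes, 343 (3.72%) were at least 2-fold higher and 363 (3.93%) at least 2-fold lower in the SMCs of both libraries. Of the 26 genes of the contractile apparatus, none of them a gene of the rule, 22 were at least 2-fold higher in both and none lower, with a median log2 ratio of 2.01 in each library, against -0.18 and -0.15 over all genes. Pericytes were cells that had not met the SMC rule, so this difference follows in part from the choice of cells. Acta2 was at 9482 CPM in Control and 9095 in Dach1OE SMCs, and at 1310 and 1000 CPM in pericytes. The log2 ratio of Acta2, SMCs over pericytes, was 2.86 in Control and 3.19 in Dach1OE. Itga8, an integrin chain of contractile cells, stood at 3.10 and 3.36 on this scale, and Synm, an intermediate filament protein of dense bodies, at 3.09 and 2.63. Sorbs2, a scaffold protein of adhesions, had ratios of 3.95 and 4.17. Cald1, an actin-binding protein, and Vcl, vinculin, differed little between the cell types, at 0.42 and 0.32 and at 0.06 and -0.05.

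Ion channels differed in both directions, though the lower ones named here were used to choose the pericytes. Kcna5, a voltage-gated potassium channel, stood at 158 and 130 CPM in SMCs and at 8.43 and 3.47 in pericytes of Control and Dach1OE. P2rx1, the ATP-gated channel through which sympathetic nerves act on arteries, stood at 121 and 104 in SMCs and 5.27 and 2.61 in pericytes. Kcnmb1, the beta subunit of the calcium-activated potassium channel, had log2 ratios over pericytes of 4.67 and 3.74, and Cacna1h, a T-type calcium channel, of 4.48 and 3.97. Kcnj8 and Abcc9, the subunits of the ATP-sensitive potassium channel of pericytes, stood lower in SMCs, at -2.30 and -3.18 and at -2.39 and -2.73. Pericytes were chosen partly by these genes, so their lower level in SMCs follows from the choice of cells. Of the 12 listed channel genes with enough UMIs, 5 were 2-fold higher and 3 lower in both libraries, beside 3.72% and 3.93% of all genes. Genes used to choose the pericytes were not taken out of this list.

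Receptors showed the same split. Adra1a, an alpha1 adrenergic receptor, had log2 ratios over pericytes of 3.76 in Control and 2.26 in Dach1OE, Tbxa2r, the thromboxane receptor, of 2.75 and 2.61, and Npy1r, a receptor of neuropeptide Y, of 1.95 and 2.22. Agtr1a, the angiotensin receptor, stood at -2.31 and -2.45 and Adra2a, an alpha2 adrenergic receptor, at -1.97 and -2.28. SMCs also held more of Ntf3, the neurotrophin NT-3, at 2.54 and 3.44. Of 10 laminin and basement membrane genes 1 was higher and 3 were lower, with medians of -0.51 and -0.89, and Lama5, a laminin chain, was the higher one at 1.95 and 2.53. Of 13 collagen genes, 8 were at least 2-fold lower in SMCs than in pericytes in both libraries and none higher, with medians of -1.16 and -1.48. Of 16 pericyte genes, 6 were lower and none higher. Pericytes were chosen by Rgs5 and other pericyte genes, so this follows in part from the choice of cells. Over all genes, 3.72% were at least 2-fold higher and 3.93% lower in both libraries. Notch3, the Notch receptor of mural cells, differed little between them, at -0.28 and -0.39.

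The genes farthest above pericytes in both libraries, beyond the genes of either rule, were Sh3bgr, Perp, P2rx1, Fbxl22, Chmp4c, Wfdc1, Atcayos, Kcna5, Slc22a2 and Scn4b, the last a beta subunit of sodium channels. Sh3bgr, an SH3-binding protein known from heart and skeletal muscle, had 76.4 and 85.5 CPM in SMCs, against 2 pericyte UMIs in Control and none in Dach1OE. The genes farthest below were Tmem273, Cd300lg, 9930111J21Rik2, 1600015I10Rik, Lgi1, Mmp9, Ttyh2, Pla1a, Stc1 and H2-M9. Cd300lg was higher in cells with a Cdh5 UMI, at 358 and 285 CPM, than in pericytes, at 158 and 153. The others were higher in pericytes than in cells with a Cdh5 UMI. Mmp9, a gelatinase, stood at 2052 and 1947 CPM in pericytes and at 78.6 and 265 in SMCs, where 5 cells held 95.7% and 88.8% of its UMIs.

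Against all other kept cells, 1428 of 16874 genes (8.46%) were at least 2-fold higher in SMCs of both libraries and 1885 (11.2%) lower. All 26 contractile genes were higher, which follows in part from the choice of cells. The top genes outside the rule were Lrrc10b, Xirp1, Kcnmb1, Gm13861, Scn4b, Acta2, Gm37800, Gm3646, Kcnj11 and Asb2. Xirp1 binds actin filaments at junctions, Asb2 directs filamins to degradation, and Kcnj11 forms the pore of an ATP-sensitive potassium channel. Kcnmb1 had log2 ratios of 7.43 and 6.70 over other cells, and Acta2 of 7.16 and 6.56. Of the 10 lowest genes by the same measure, chosen after their values were seen, Snorc, Ihh, Matn1, Scrg1, Ucma, Col9a1 and Col9a3 are genes of cartilage. The rule kept Acan-rich cells out of the SMCs, and all of those cells stood among the other kept cells. The low level of cartilage genes in SMCs thus follows at least in part from the choice of cells.

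**Figure D2:**
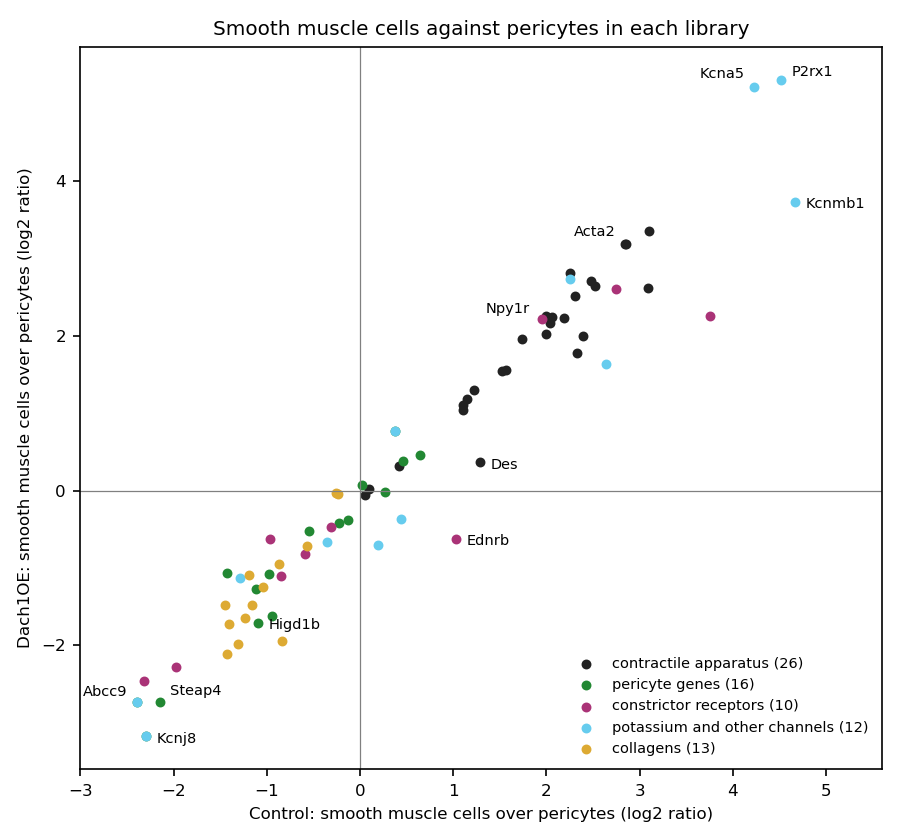
Each point is a listed gene, with the log2 ratio of its CPM in smooth muscle cells over pericytes in the Control library on the x axis and in the Dach1OE library on the y axis. Colours give the gene list and the number of its genes. Contractile genes stand at the upper right (median 2.01 in each library), collagens at the lower left (-1.16 and -1.48), and Des and Ednrb off the diagonal.

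SMCs were not uniform, and Rgs5, a regulator of G-protein signalling used as a pericyte gene, varied among them. No Rgs5 UMI was found in 255 Control (28.0%) and 379 Dach1OE SMCs (22.8%), whereas 417 (45.7%) and 694 (41.7%) had 10 or more. In cells thinned to 1000 UMIs, 35.9% and 30.4% had none and 43.8% and 42.1% had 5 or more. Near the bound of 10 UMIs, 72 Control and 144 Dach1OE SMCs lay between 8 and 15 UMIs, so the groups are ranges of a level and not cell types. Depth was alike within a library, with a median of 2449 UMIs in Control SMCs without Rgs5 and 2455 in those with 10 or more, and of 1985 and 2226 in Dach1OE. The mitochondrial share was not, at 20.2% and 12.0% in Control and 18.7% and 12.0% in Dach1OE, and its part in the differences was not tested. SMCs with 10 or more Rgs5 UMIs also lay nearer the edge of the rule, with a mean of 2.67 and 2.89 of the 6 marker genes against 4.04 and 3.73 in those without. Rgs5 stood at 22647 and 18194 CPM in SMCs with 2 marker genes and at 5966 and 6770 CPM in those with 3 or more. The part of this in the contractile levels below was not tested.

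**Figure D3:**
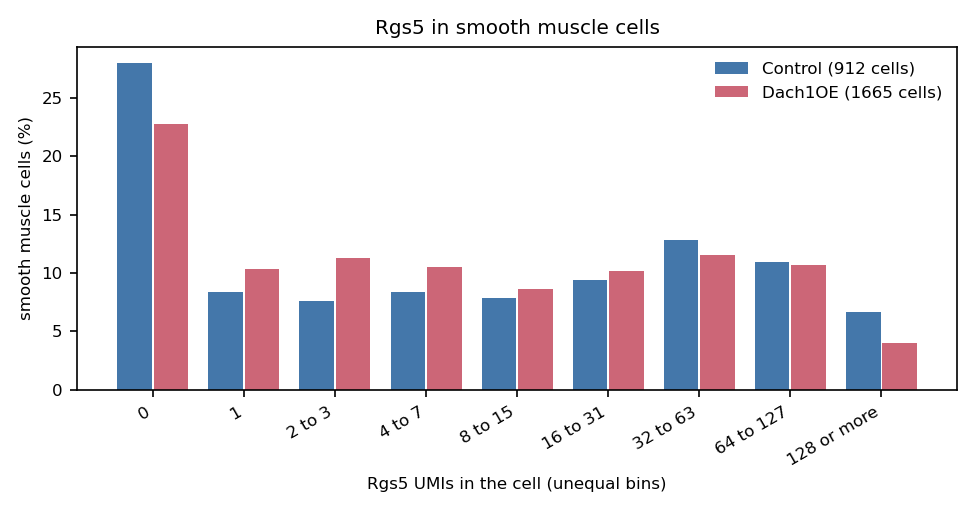
The y axis gives the percent of smooth muscle cells of a library and the x axis the Rgs5 UMIs in the cell in bins of unequal width, with blue bars for Control (912 cells) and red bars for Dach1OE (1665 cells). A bar at 0 UMIs (28.0% and 22.8%) and a broad run of cells around 32 to 63 UMIs (12.8% and 11.5%) are seen in both libraries.

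Contractile genes stood higher in SMCs without Rgs5. Of 6516 genes, 98 (1.5%) were at least 2-fold higher and 325 (4.99%) at least 2-fold lower in them than in SMCs with 10 or more Rgs5 UMIs, in both libraries. The split was made on these same cells and is a description. Of 26 contractile genes 12 were higher and none lower, with medians of 1.29 in Control and 0.91 in Dach1OE, against -0.23 and -0.18 over all genes. Cnn1, calponin, stood at 405 and 375 CPM without Rgs5 and at 39.2 and 48.1 with 10 or more. As a gene of the cell rule, Cnn1 is no finding by its level. Acta2 stood at 15101 and 12933 against 5639 and 6008 CPM. Kcnmb1 stood at 162 and 138 against 25.6 and 23.3 CPM. Actc1, cardiac actin, had 76 and 41 UMIs in SMCs without Rgs5 and 0 and 2 in those with 10 or more, although 5 cells held 86.4% and 84.9% of its SMC UMIs.

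Other genes stood higher in the SMCs with 10 or more Rgs5 UMIs. Dlk1, an imprinted ligand of the Notch family that restrains differentiation, had no UMI in the Rgs5-free SMCs of either library and 249 and 167 UMIs in those with 10 or more, a log2 ratio of at most -5.61 and -4.87 with 3 counts taken as the floor. Ednrb, the endothelin B receptor, had 8 and 0 UMIs against 144 and 123. Agtr1a had 4 and 2 UMIs against 77 and 108. Mgp, matrix Gla protein, an inhibitor of calcification, stood at 126 and 184 CPM against 1697 and 1750. Steap4, a metalloreductase used as a mural cell marker, stood at 24.5 and 10.1 against 581 and 475. Of 16 pericyte genes 9 were lower, with Rgs5 among the 16 and lower by the split itself. Of 13 collagens 7 were lower, and of 9 constrictor receptors 5 were lower and 2 higher. Over all genes, 4.99% were lower and 1.5% higher. The other genes farthest down in both libraries were Pla1a, Col5a3, Tnfrsf21, Tspan15, Adra2a, Olfm2, Fabp5 and Hcar1. The highest beyond those named were Tnmd, Cpxm2, Lgi2, Wfdc1, Nkd1 and Sh3bgr, with the haemoglobin genes Hbb-bs and Hba-a2. Over all SMCs Hbb-bs had 68 and 295 UMIs, and 3 and 11 without the mixed cells. Hba-a2 had 48 and 185, and 2 and 7 without them. The genes of this contrast were chosen after their values were seen.

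Few genes of the SMCs were past 2-fold between the groups. Of 7738 genes, 34 (0.439%) were at least 2-fold higher in Dach1OE SMCs and 52 (0.672%) at least 2-fold lower, and the median log2 ratio, Dach1OE over Control, was 0.01. Without the mixed cells, 10 of the 34 higher and 33 of the 52 lower genes still had 100 UMIs, and 6 and 31 of these were past 2-fold. The 6 higher genes were Perp, Nrgn, Pex5l, Chn2, Msmo1 and Prg4, at 1.15, 1.23, 1.13, 1.45, 1.04 and 4.92 without the mixed cells. Prg4 rested on few cells, as given at the end. Whatever their UMIs, 2 of the 34 turned below 0. The direction was shared by female and male cells for 28 of the 34 and 43 of the 52, on the 356 Control and 612 Dach1OE SMCs of told sex.

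**Figure D4:**
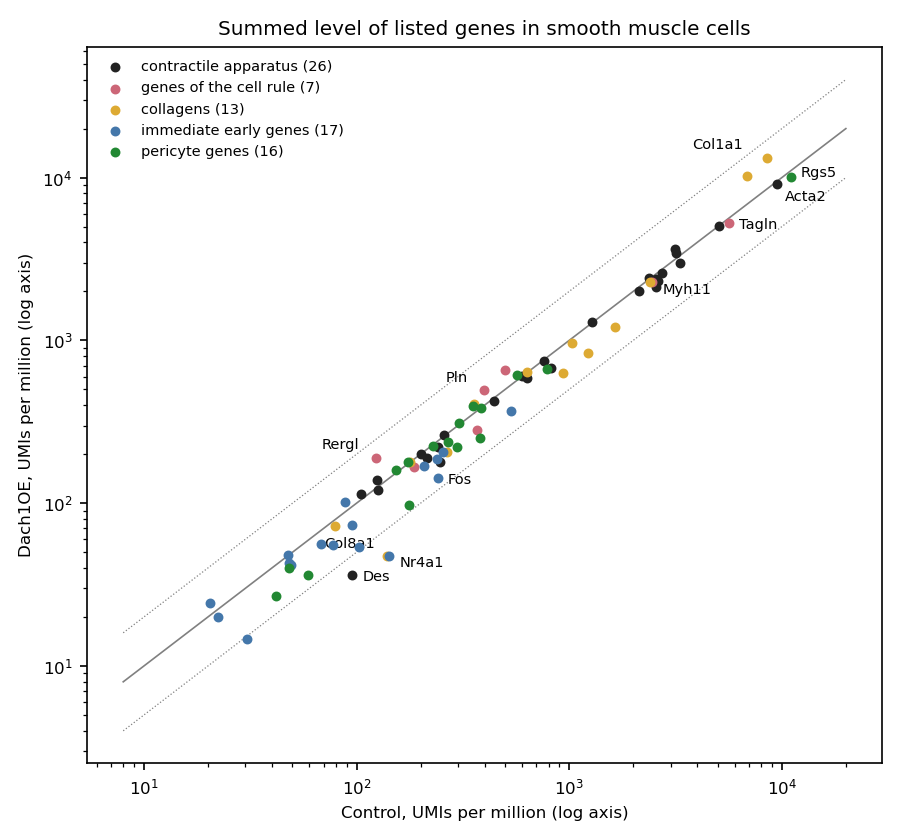
Each point is a listed gene with its CPM in Control smooth muscle cells on the x axis and in Dach1OE smooth muscle cells on the y axis, both logarithmic. The solid line marks equal levels and the dotted lines a 2-fold difference, colours give the gene list, and Des, Nr4a1 and Col8a1 lie below the lower dotted line.

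Dach1 (ENSMUSG00000055639.16, chr14:97786853-98169765) was measured first, since it is the gene the allele overexpresses. Its SMC sum was 8 UMIs in Control and 36 in Dach1OE, or 3.02 (1.31 to 5.96) and 8.46 (5.92 to 11.7) CPM. The log2 ratio was 1.48 (0.35 to 2.80). It was found in 7 of 912 and 34 of 1665 SMCs, 0.768% and 2.04%, and in 0.110% and 0.795% after thinning. Pericytes showed it in 3.41% and 3.62%, and cells with a Ptprc UMI in 16.3% and 15.8%. Whether the UMIs in SMCs were free RNA was not tested. In cells with a Cdh5 UMI it went from 2.04% in Control to 34.6% in Dach1OE at median depths of 3264 and 3226 UMIs. Aplnr, whose promoter drives the Cre, had 21 and 53 UMIs in SMCs, or 7.94 and 12.5 CPM, and stood at 408 and 376 CPM in the Cdh5 cells.

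The contractile apparatus was at a like level in both groups. Of its 26 genes none was 2-fold higher and 1 was 2-fold lower, beside 0.439% and 0.672% of all genes, and the median log2 ratio was -0.07. Over the genes with 100 UMIs in the cells compared, the median was 0.081 in female and -0.14 in male cells, and it was -0.01 without the mixed cells. Acta2 had a log2 ratio of -0.06 (-0.08 to -0.04), Tpm1, tropomyosin, of -0.02, and Mylk, the myosin light chain kinase, of -0.14. Myl6 and Myl9, myosin light chains, were at 0.22 and 0.12. Acta2 stood at 0.16 in female and -0.14 in male cells, so its small difference had no single direction.

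The gene past 2-fold was Des, desmin, the intermediate filament that ties dense bodies together (ENSMUSG00000026208.9, chr1:75360329-75368579). It had 252 UMIs in Control and 155 in Dach1OE SMCs, or 95.3 (83.9 to 108) and 36.4 (30.9 to 42.6) CPM. The log2 ratio was -1.39 (-1.69 to -1.09), with -1.82 in female cells, -1.70 in male cells and -1.38 without the mixed cells. Des was seen in 21.3% and 8.17% of SMCs, and in 9.11% and 3.73% after thinning, against 0.166% and 0.706% of Ptprc cells. Pericytes had 39.0 and 28.2 CPM, so that Des stood above pericytes by a log2 ratio of 1.29 in Control and 0.37 in Dach1OE. Synpo2, another dense body protein, was at -0.47, with -0.92 in male cells.

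The genes of the rule are no finding by their level, because every SMC was chosen on them. Rergl stood at 123 and 191 CPM, Nrip2 at 498 and 655, Pln, phospholamban, at 396 and 495, and Lmod1, leiomodin, at 367 and 281. Myh11, Tagln and Cnn1 had log2 ratios of -0.09, -0.10 and -0.17.

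In the calcium and channel lists no gene was past 2-fold, among 10 and 11 genes. Casq2, the calcium store protein calsequestrin, was at 305 (284 to 327) and 426 (407 to 446) CPM, a log2 ratio of 0.48 that was positive in both sexes at 0.61 and 0.45. Kcnk3, a background potassium channel, was at 381 and 250 CPM, a ratio of -0.61 with -0.39 and -0.53 by sex. Atp2a2, the calcium pump of the store, stood at -0.19, Cacna1c, the L-type channel, at -0.07 and Kcnmb1 at -0.09. Outside the lists, and chosen after their values were seen, Casq1, another calsequestrin, and Kcnj2, an inward rectifier potassium channel, were past 2-fold lower at -1.09 and -1.06, on 62 and 47 and on 92 and 71 UMIs.

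Of 10 constrictor receptors 2 were past 2-fold lower, beside 0.672% of all genes. Ednrb had 205 UMIs in Control and 139 in Dach1OE SMCs, 77.5 and 32.7 CPM, a log2 ratio of -1.25 (-1.57 to -0.93). The ratio was -0.45 in female and -2.56 in male cells. Adra1b, an alpha1 adrenergic receptor, had 98 and 69 UMIs and a ratio of -1.19, with -1.03 and -0.06 by sex. The receptors Ednra, S1pr3 and Tbxa2r stood at 0.06, 0.04 and 0.04. The relaxant pathway, which answers nitric oxide and cyclic nucleotides, had no gene past 2-fold among 8, with Gucy1a1 and Gucy1b1, the subunits of soluble guanylate cyclase, at 0.03 and 0.04 and Pde5a, the cyclic GMP phosphodiesterase, at -0.00.

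Among 18 transcriptional regulators and 9 Notch genes none was past 2-fold. Myocd, myocardin, was at 42.0 and 42.5 CPM. Hey2, a Notch target that marks arterial identity, had 139 UMIs in Control and 366 in Dach1OE, 52.6 (44.2 to 62.1) and 86.0 (77.4 to 95.3) CPM. Its log2 ratio was 0.71, with 1.30 in female and 0.35 in male cells, and pericytes had 45.3 and 35.6 CPM. Notch3 stood at -0.06, Jag1 at 0.02 and Heyl at -0.03. The ligands Jag2 and Dll4 had 2 and 20 and 2 and 22 UMIs, too few to enter. The PDGF, TGF-beta and BMP list had no gene past 2-fold among 16, with a median of -0.24 and Smad6, an inhibitor of BMP signals, lowest at -0.72. The hypoxia and glycolysis list had none among 12, with a median of 0.02 and Vegfa at 0.51 (0.23 to 0.80). The cell cycle list had none among 16, with a median of 0.02, or -0.22 without the mixed cells. Over the genes with 100 UMIs in the cells compared, its median was 0.39 in female and -0.41 in male cells. Mki67, a marker of dividing cells, stood at 0.64 (0.11 to 1.19) and -1.04 (-1.67 to -0.41).

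Of 13 collagens, Col8a1, a short-chain collagen of vessel walls, was past 2-fold lower, beside 0.672% of all genes, at 138 and 47.5 CPM, a log2 ratio of -1.54 (-1.80 to -1.29), with -1.91 and -2.10 by sex and -1.82 without the mixed cells. In SMCs without Rgs5 its direction turned, at 62.5 and 77.4 CPM, whereas in those with 10 or more Rgs5 UMIs it stood at 229 and 44.4 CPM. Col1a1 had a ratio of 0.64, but -0.21 in female and 2.32 in male cells, and 0.30 without the mixed cells. The collagen VI genes Col6a1, Col6a2 and Col6a3 stood at -0.57, -0.54 and -0.37, and without the mixed cells at -0.64, -0.60 and -0.34. Among 17 genes of the elastic fibre and matrix list none was past 2-fold, with Postn, periostin, at -0.86 and Eln, elastin, at -0.12. Eln stood at 0.20 (0.11 to 0.29) in female and -0.29 (-0.39 to -0.18) in male cells, and the median of the list was -0.28 and 0.45 over the genes with 100 UMIs in those cells. Of 18 secreted factors none was past 2-fold. Cxcl12, the niche chemokine, had a ratio of -0.93 over all SMCs and 0.20 without the mixed cells, so its direction rested on them. It stood at -1.43 (-1.54 to -1.32) in female and 0.47 (0.33 to 0.61) in male cells. Ccl2 had 45 UMIs in Control and 1 in Dach1OE, found in 5 cells and 1 cell.

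Immediate early genes respond within minutes to stimuli and to handling. Of 17, none was 2-fold higher and 2 were 2-fold lower, beside 0.439% and 0.672% of all genes, with a median of -0.31. Over the genes with 100 UMIs in the cells compared, the median was -0.053 in female and -0.74 in male cells. Nr4a1, a nuclear receptor of this class, had 376 and 201 UMIs, 142 and 47.2 CPM, a log2 ratio of -1.59 (-1.84 to -1.34), with 0.23 in female and -2.17 in male cells. Fos was at 241 and 142 CPM, a ratio of -0.76 with -0.05 and -1.22 by sex, and Dusp1, a phosphatase, at -0.94. In all other kept cells the list had a median of -0.34 and in pericytes of 0.14. Of 9 imprinted genes, H19 was past 2-fold higher and Dlk1 past 2-fold lower, beside 0.439% and 0.672% of all genes. Without the mixed cells H19 stood at 0.41. Dlk1 had 253 and 176 UMIs with a ratio of -1.21.

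By rank, the genes lowest in Dach1OE SMCs with the same direction in both sexes were Cilp, Nr4a3, Sbspon, Scn3a, Thbs4, H2-M9, Aplp1, Col8a1, Apold1 and Ephx3, at log2 ratios from -2.38 to -1.48. Sbspon, a secreted protein, had 80 Control and 34 Dach1OE SMCs with a UMI, at 39.7 and 8.69 CPM, and its ratio was -2.19 over all SMCs and -2.17 without the mixed cells. Scn3a, a sodium channel, stood at 29.5 and 6.58 CPM, but its ratio turned to 1.21 among cells with under 10% mitochondrial UMIs. Nr4a3, of the same family as Nr4a1, stood at 30.2 and 6.58 CPM. Cilp and Thbs4, matrix proteins of tendon and cartilage, rested on few cells, since 5 cells held 99.0% and 93.7% of their UMIs in Control. Without the mixed cells Cilp stood at -3.26 and Thbs4 at -3.56.

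Among the genes highest in Dach1OE SMCs were Hbb-bt, H19, Entpd3, Alox12, Hba-a1, Clec1b, Hba-a2, Ptprz1 and Mmp16, at log2 ratios from 2.16 to 1.24. Without the mixed cells Ptprz1 and Mmp16 stood at 0.61 and 0.60, on 8 and 19 and on 11 and 26 UMIs, and were no longer past 2-fold. Hbb-bt, Hba-a1 and Hba-a2 are haemoglobin genes, and 97.3% of the Hba-a1 UMIs of Dach1OE SMCs lay in mixed cells. Alox12 and Clec1b are known from platelets, and 86.8% and 86.4% of their Dach1OE UMIs lay in mixed cells. Mixed cells were picked by genes of these lineages, so few UMIs remained without them. Alox12 then stood at 0.43 and Hba-a1 at 0.46, Clec1b at 1.78 on 3 and 16 UMIs, Hbb-bt at 1.68 on 1 and 5, and Hba-a2 at 1.17 on 2 and 7. H19, an imprinted RNA, went from 44.2 to 146 CPM, a ratio of 1.72, with 70.7% of its Dach1OE UMIs in mixed cells and a ratio of 0.41 without them. Entpd3, which breaks down extracellular ATP, was seen in 12 and 44 SMCs with a ratio of 1.61, but without the mixed cells it had 1 Control and 10 Dach1OE UMIs.

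**Figure D5:**
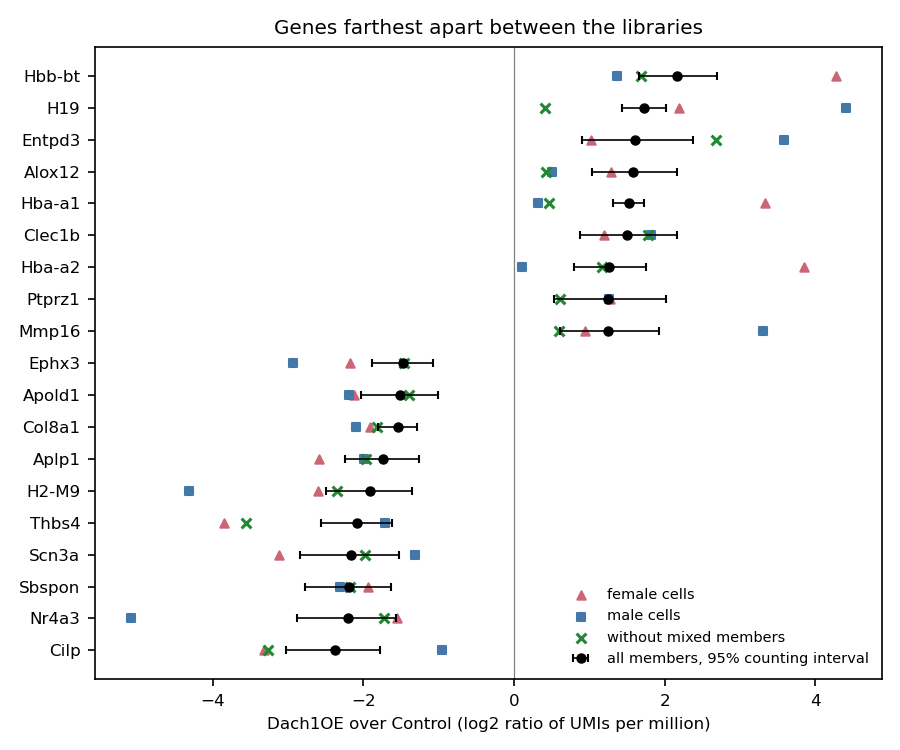
The x axis gives the difference in level, Dach1OE over Control, as a log2 ratio, and each line of the y axis is a gene. Black points with lines are all smooth muscle cells with the 95% counting interval, red triangles and blue squares are female and male cells, and green crosses leave out the mixed cells. For H19 the cross lies at 0.41 and the black point at 1.72, whereas for Sbspon the values are -2.17 and -2.19.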

How the data were processed

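The deposited tables list, for each cell and gene above 0, whole-number counts that were not normalized, namely reads, uncorrected UMIs and UMIs corrected by the recursive substitution algorithm (RSEC). The authors' counts came, per the file headers, from version 1.11 of the BD Rhapsody WTA pipeline, run on GRCm38 with GENCODE vM19, whereas the methods state another version. RSEC-adjusted UMIs were used. Gene coordinates are 1-based, on GRCm38.

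UMIs were summed per library and cell kind in Python 3.11.15 (numpy 2.4.6, scipy 1.17.1, pandas 2.3.3) and divided by the cell kind's total to CPM. Sums have exact Poisson, shares exact Clopper-Pearson and ratios exact conditional binomial intervals, at 95%. A gene entered with at least 100 UMIs over both libraries, and a gene counted as different past 2-fold. The ratio code was tested on simulated data. Cells with an Xist UMI and no Y-linked UMI were taken as female, and the reverse as male. Pericytes had at least 2 Rgs5 UMIs and at least 2 of the 6 further genes Kcnk3, Abcc9, Kcnj8, Higd1b, Ndufa4l2 and Vtn. They were not SMCs. Doublets were not removed, and mixed cells are given instead. Alternatives included raw UMIs, other cell filters and cell rules, and TMM factors (edgeR 4.0.16 in R 4.3.3, used for scaling only).

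The cell rule, the lists and the comparisons were chosen with earlier results of these data known. Named genes were the members of 23 lists, the 10 highest and 10 lowest of Dach1OE over Control among genes with the same direction in both sexes, and the 10 farthest from pericytes and above other cells by the smaller of both libraries' ratios. A gene of these is not reported here.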

Additional observations from a re-analysis of the deposited data

Results flagged for a closer look

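Of 350 genes looked at, 30 had log2 ratios of opposite sign in female and male SMCs with counting intervals apart from 0, and 10 had opposite signs over pericytes in the 2 libraries. The 9 that were past 2-fold in both directions are given here. The differences were not tested, and those between the sexes set 1 mouse of each group beside another.

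Between the sexes, Atf3, a stress-induced transcription factor, had a log2 ratio, Dach1OE over Control, of 1.82 in female cells (3 and 17 UMIs) and -2.62 in male cells (39 and 9 UMIs). Mmp9 stood at -2.05 and 5.02, with 5 male Control UMIs. In Control and Dach1OE 5 cells held 95.7% and 88.8% of the SMCs' Mmp9 UMIs, and its ratio over both sexes was 1.75, or -0.12 without the mixed cells. Pdgfra, a receptor of fibroblasts and stromal cells, stood at -1.79 and 1.44, Plagl1, an imprinted transcription factor, at -1.73 and 2.50, and Ptn, the growth factor pleiotrophin, at -1.74 and 2.03. Pdgfra, Plagl1 and Ptn had only 6, 4 and 5 UMIs in male Control cells. The interval of Pdgfra in male cells was 0.10 to 3.02, and that of Atf3 in female cells 0.03 to 4.23.

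Over pericytes, Ccl2 had a log2 ratio of 1.43 in Control and -3.69 in Dach1OE, where it rested on 1 SMC UMI. Clec1b stood at -1.78 and 1.24, Hba-a2 at -1.67 and 1.25 and Hbb-bt at -2.31 and 1.08. The latter 3 are genes of platelets and red cells, whose markers in SMCs lay mostly in mixed cells.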

How the results depend on the processing

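Beside a difference of 2.23 percentage points in the SMC share, the difference was 0.489 with under 10% mitochondrial UMIs, 0.906 with at least 1000 genes, 1.73 with 3 marker genes, 1.88 with 2 Myh11 UMIs, 0.541 in cells with 2000 UMIs, 0.329 in SMCs without Rgs5, 1.82 in female and 0.779 in male cells, and 3.88 with Cdh5 and Ptprc cells out of the denominator. Alternatives chosen after seeing the data gave 1.76 without the mixed cells, 1.80 after thinning to 1000 UMIs and -5.84 over SMCs and pericytes. The ratio of the shares, 1.65 over all SMCs, was 1.62 with under 10% mitochondrial UMIs, 1.30 with 1000 genes and 1.18 with 2000 UMIs. The 34 genes 2-fold higher became 17 with 3 marker genes, 22 without Rgs5, 145 with at least 30 and 13 with at least 300 UMIs, and 11 without the mixed cells. The 52 lower became 31 with under 10% mitochondrial UMIs, 20 without Rgs5, 33 in female and 24 in male cells, 173 with at least 30 and 16 with at least 300 UMIs. The contractile median of -0.07 became -0.15 with at least 1000 genes, -0.18 with 2000 UMIs, -0.22 without Rgs5 and 0.081 in female cells. The Dach1 log2 ratio lay between 0.87 and 2.23, but its interval included 0 in 5 settings (under 10% mitochondrial UMIs, 3 marker genes, 2000 UMIs, no Rgs5, male cells). Scn3a turned to 1.21 with under 10% mitochondrial UMIs, and without Rgs5 Col8a1 turned to 0.31, Alox12 to -0.66 and Clec1b to -2.43. Cilp was at -0.43 without Rgs5, and Nr4a3 at -0.46 with under 10% mitochondrial UMIs. Fewer cells and UMIs entered under the stricter filters, and for the other changes the cause was not tested. Among single genes and lists, 398 values stayed within the interval around the main value and 97 left it. For a single gene this was its counting interval. For a list it had the median width of its genes' counting intervals, so it is no counting interval of the list median. No paired analysis was possible because each group has 1 library.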

Other observations

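A list of 19 genes of sterol synthesis was written after their values were seen and is no independent evidence of a direction. Of 14 with enough UMIs, 14 had a log2 ratio above 0 and 1 was past 2-fold, beside 0.439% of all genes, with a median of 0.60, of 0.47 in female and 0.48 in male cells. The gene past 2-fold was Msmo1, a methylsterol oxidase, at 1.01 (0.56 to 1.49). Srebf2, the factor that drives this pathway, was at 63.1 and 89.3 CPM, and Sqle, squalene epoxidase, at 12.5 and 20.2 CPM. The same list had a median of 0.34 over 19 genes in cells with a Cdh5 UMI, 0.21 over 19 in all other kept cells and 0.030 over 19 in the Acan-rich cells.

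Several targets of the cofactor YAP were lower, and they were picked after their values were seen. Ctgf, a matricellular protein, had 1113 and 689 UMIs, a log2 ratio of -1.38 with -0.92 in female and -1.42 in male cells. Cyr61, of the same family, stood at -1.03 and Amotl2, an angiomotin, at -1.12. Over a list of 22 such targets the median was -0.14 over 16 genes, with 3 past 2-fold lower, beside 0.672% of all genes, and 5 above 0.

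Prg4, lubricin, also chosen after its values were seen, had 92 and 866 UMIs and a log2 ratio of 2.55. It was found in 21 SMCs of each library, and 5 cells held 75.0% and 97.2% of its UMIs. Without the mixed cells it had 17 and 802 UMIs, a ratio of 4.92.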
